A study of Drosophila melanogaster with 6 samples.

Results

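This account covers 36 named genes of lipid digestion, sterol transport, fat synthesis, fat storage and lipoprotein traffic in progenitor cells of the adult Drosophila melanogaster midgut. They were chosen by name and matched by FlyBase symbol, which found 35 of them among the 17807 genes of the expression table, while FASN3 had no row under its current identifier and is not analysed here. RNA was sequenced from intestinal stem cells and enteroblasts, sorted on a GFP reporter from 70 guts per replicate, to ask how gene expression differs when the linker histone H1 is targeted. The H1 RNAi group is labelled esgts, UAS-GFP with a UAS H1 RNAi 1 transgene, and the control group esgts, UAS-GFP without it, with 3 libraries each, lettered A, B and C. The esg driver and the GFP are carried by both groups, and both were given 4 days at 29 °C according to the sample labels. The growth protocol instead states 18 °C before the shift and 1 day at 29 °C, for flies aged 3 days. Only 1 RNAi construct was used, guts were pooled, and the labels do not say whether replicates were separate crosses, so the p-values rest on a spread between libraries that may be partly technical.

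Dietary fat is split in the gut lumen by lipases, and sterols, which flies cannot make, are taken up through NPC1 and NPC2 proteins. Absorbed fatty acids can be rebuilt into triacylglycerol, kept in lipid droplets under a perilipin coat, released again by lipases such as brummer, or exported on lipophorin particles to other tissues. The membrane-bound factor SREBP, escorted by SCAP and released by the S1P and S2P proteases, turns on the genes of fatty acid synthesis. Most of the digestive steps are known from mature enterocytes, the absorptive daughters of the progenitors sampled here.

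Values are TPM (transcript abundance corrected for gene length and for the total of each library) as the authors deposited them, so levels can be set side by side between genes but the read depth is unknown. A library had 7767 to 8316 genes at 1 TPM or more. All 23 rows of the H1 gene itself (His1 copies) were listed at 0 in all 6 libraries, so the table does not check the knockdown. The 13 progenitor marker genes with a row summed to 2922 to 3189 TPM in H1 RNAi and 2743 to 3184 TPM in control. The listed markers esg, Dl and hdc were not matched to a row and are not in these sums. The 16 enteroendocrine markers summed to 1110 to 1614 TPM in H1 RNAi and 2455 to 3259 TPM in control. The 9 hemocyte markers summed to 7.29 to 10.95 TPM in H1 RNAi and 1.51 to 4.13 TPM in control. Most of the H1 RNAi sum was the collagen genes Col4a1 and vkg. Col4a1 was at 3.61 to 5.51 TPM in H1 RNAi and 0.22 to 0.31 TPM in control. The values of vkg were 2.43 to 3.81 TPM in H1 RNAi and 0.07 to 0.19 TPM in control. Hml was at 0.07 TPM or less in every library. The 14 visceral muscle markers summed to 113 to 141 TPM in H1 RNAi and 131 to 133 TPM in control. Most of the muscle sum was Tm1, at 96.98 to 124.15 TPM in H1 RNAi and 110.96 to 119.56 TPM in control. Of the 14 muscle markers, 9 were under 1 TPM in every library, among them Mhc at 0.52 TPM or less. The 6 tracheal markers summed to 73.2 to 93.5 TPM in H1 RNAi and 10.9 to 21.1 TPM in control. That difference was in dysf alone, at 55.95 to 78.36 TPM in H1 RNAi and 0.02 TPM or less in control. The next highest, btl, was at 8.51 to 16.46 TPM in H1 RNAi and 9.64 to 19.67 TPM in control. Markers of ovary (12 genes) summed to 3.29 TPM or less in every library. The library control B stood apart in the fat body list, whose 13 genes summed to 95.2 TPM there and to 4.53 to 8.12 TPM in the other 5 libraries. That sum came mainly from the yolk protein genes, with Yp1 at 43.5 TPM, Yp2 at 22.7 TPM and Yp3 at 19.4 TPM in control B, while the larval serum protein gene Lsp2 was at 0.15 TPM there. Among 3 control libraries, control B was the farthest from the other controls for 16 of the 26 tested lipid genes, and for 41% of all tested genes.

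Of the 36 genes, Lip2, which encodes a lipase, was the 1 that rose past the threshold in H1 RNAi progenitors, while the abundant genes of fat storage and fat synthesis gave no call. Lip2 was at 1.15, 2.33 and 1.04 TPM in H1 RNAi A, B and C and was listed at 0 in the 3 control libraries (adjusted p = 0.0459, limma). It was tested only because the H1 RNAi libraries passed the filter on low values, so it had to differ between the groups. The lipase gene mag had the largest fold change of those with a control level above 0, 2.24 ± 0.50 on the log2 scale (SE), but missed the threshold (adjusted p = 0.0700, limma).

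Of the 35 genes with a row, 26 passed the filter of at least 1 TPM in at least 3 libraries and were tested by limma on log2(TPM + 1) together with all 8124 such genes. Of these 26, 1 rose, 0 fell and 25 did not pass an adjusted p of 0.05, where 2.83% of all tested genes passed. The groups did not overlap for 8 of the 26, 7 being higher in H1 RNAi and 1 lower, against 30.8% of all tested genes (24.3% higher and 6.45% lower). Before adjustment, 10 of the 26 had a p under 0.05, against 23.8% of all tested genes. The median log2 fold change of the 26 was 0.20, beside 0.14 for all tested genes. After TMM scaling (a trimmed mean of M values) these medians were 0.10 and 0.02, so the sign of small fold changes depends on the scaling. As Lip2 passed the filter only through H1 RNAi, the lipophorin gene apolpp passed it only through control, and it too had to differ between the groups to be tested. The 9 genes not tested were Lip1, Lip3, Npc2b, Npc2c, Npc2g, Npc2h, Lsd-1, Apoltp and LpR1.

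**Figure D1:**
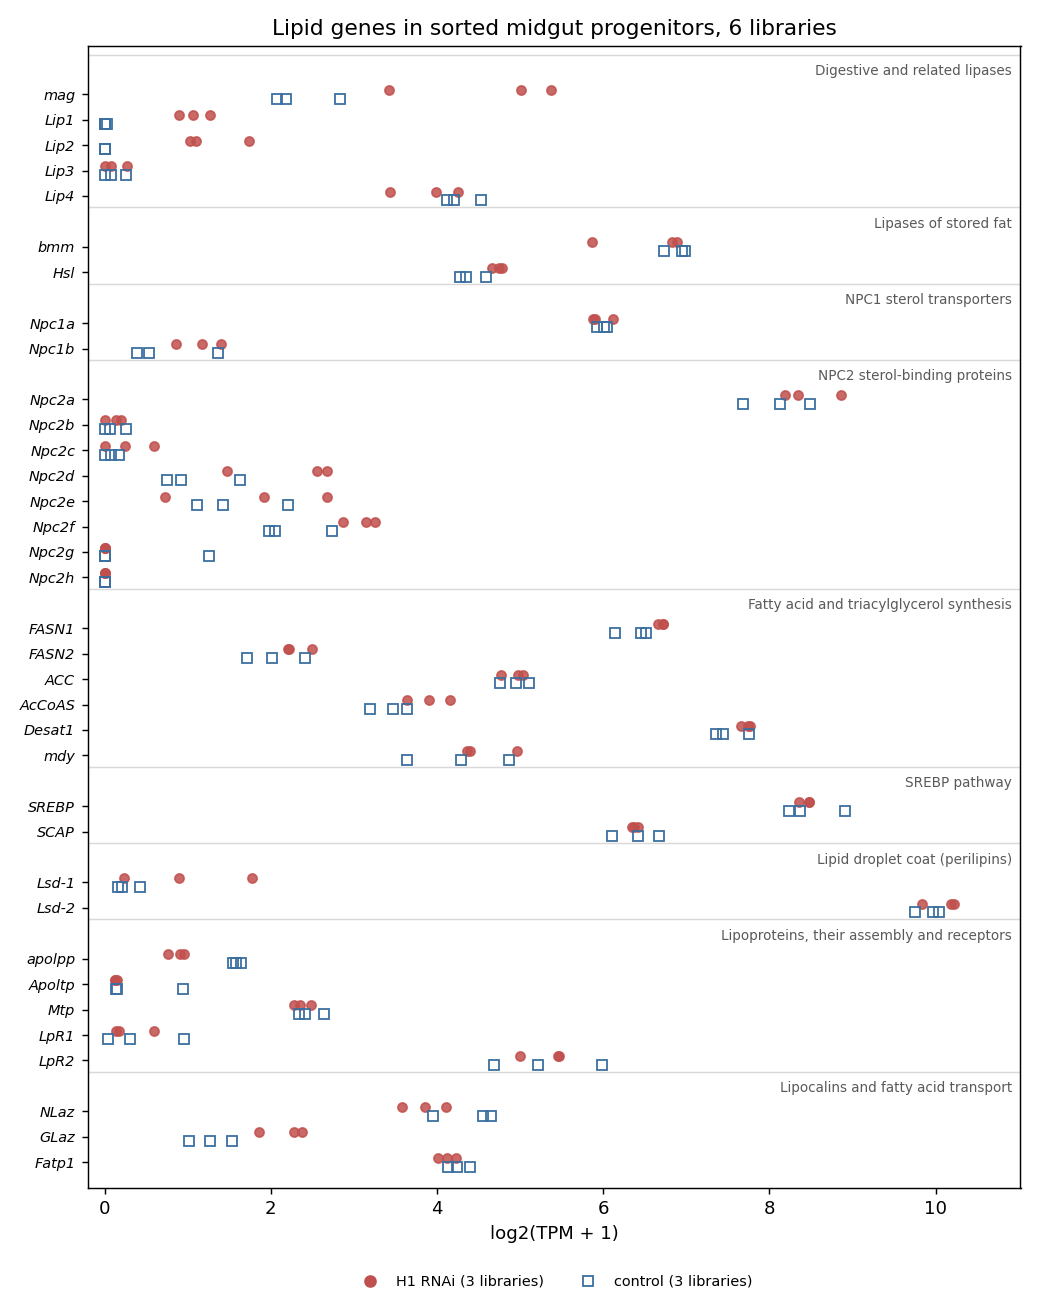
Level of each of the 35 lipid genes with a row, as log2(TPM + 1) on the horizontal axis, for 3 H1 RNAi libraries (filled circles) and 3 control libraries (open squares), grouped by role. Lsd-2 is highest, at 863 to 1191 TPM over the 6 libraries, and Npc2h is listed at 0 in all 6.

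Of the 5 gut lipase genes, 3 were tested, of which 1 (Lip2) rose, 0 fell and 2 did not pass. Of all tested genes, 2.28% passed as higher in H1 RNAi. Lip2 entered this count only through the H1 RNAi libraries, so it had to differ between the groups. The gene mag (FBgn0036996, 3L, 20460683 to 20462274 on the plus strand in BDGP6.54, the dm6 assembly) encodes magro, a lipase known to break down triacylglycerol and cholesterol esters in the fly gut. It was at 40.4, 9.70 and 31.2 TPM in H1 RNAi A, B and C, against 3.20, 3.55 and 6.14 TPM in control A, B and C. All H1 RNAi libraries were above all controls, but library B was much closer to the controls than A and C were. Group means were 27.1 ± 15.8 TPM in H1 RNAi and 4.30 ± 1.61 TPM in control (SD, n = 3 each). Without H1 RNAi B the adjusted p was 0.0200 (limma, log2 fold change 2.83), and no other alternative brought it under 0.05 (highest 0.183). The whole mag gene lies within atk, which is annotated on the other strand, and use of the strand in counting is not stated in the sources used here. The values of atk were 0.18, 0.08 and 0.07 TPM in H1 RNAi and 0.02, 16.7 and 3.19 TPM in control A, B and C, and the part of atk reads in the mag values was not tested.

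Lip1 (FBgn0023496, 2L, 10699408 to 10701544) and Lip2 (FBgn0024740, 2L, 10701940 to 10709453) are lipase genes on the minus strand that lie 395 bp apart. Lip1 was at 1.41, 1.09 and 0.86 TPM in H1 RNAi A, B and C, against 0, 0.02 and 0 TPM in control. As with Lip2, the groups did not overlap and the control libraries were at or next to 0. Lip1 missed the filter, and in a fit without a filter it passed (adjusted p = 0.0330, limma), while Lip2 then did not (0.0633). In that fit 0.547% of 13713 genes passed as higher in H1 RNAi. The sources used here do not state how reads between such close neighbours were assigned. CG6415, which overlaps Lip2 by 1310 bp on the other strand, had a mean of 0.023 TPM in each group. The Lip2 call was kept without control B (0.0498) and lost without each of the other 5 libraries (0.0925 to 0.144), with TMM scaling (0.0550), with quantile normalization (0.0681) and with a pseudocount of 5 (0.0766).

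Lip4 (FBgn0032264, 2L, 10527572 to 10531778), an acid lipase relative, did not follow them. It was at 9.78, 18.0 and 14.8 TPM in H1 RNAi, against 22.2, 16.4 and 17.5 TPM in control, with overlapping groups (log2 fold change -0.40 ± 0.22, adjusted p = 0.325, limma). Lip3, known as a lipase that is switched on in starved larvae, was at 0.21 TPM or less in every library.

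**Figure D2:**
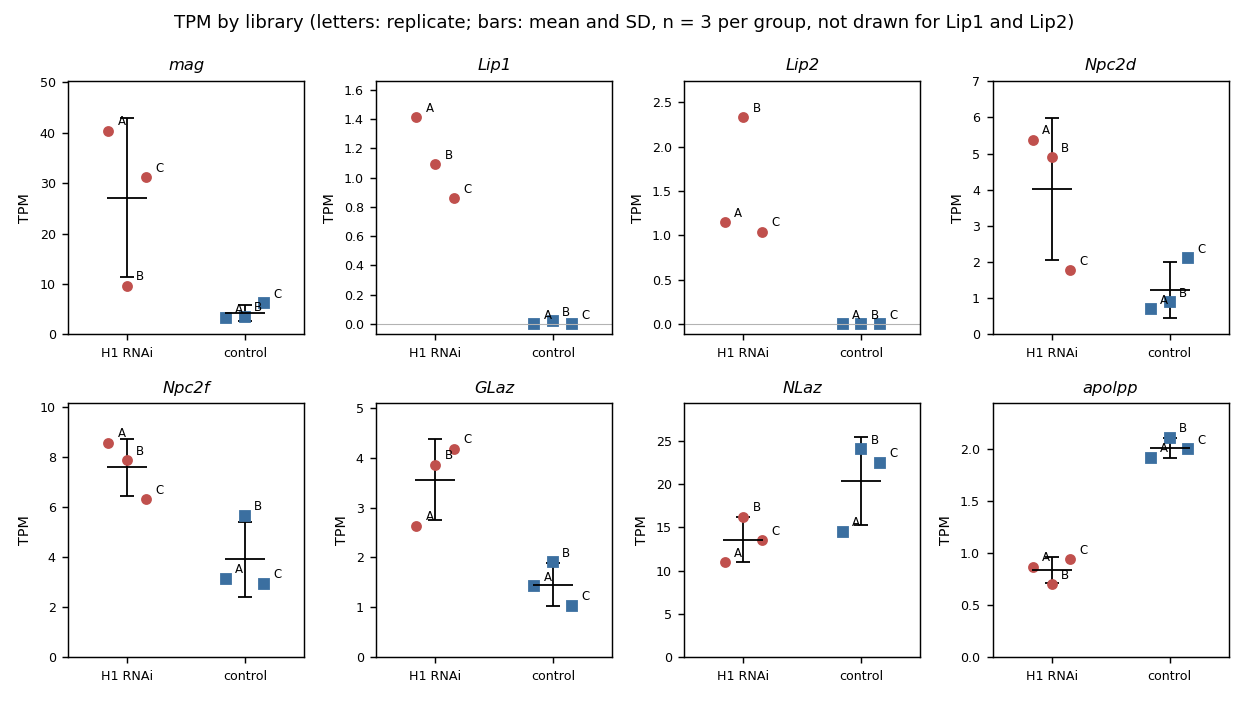
TPM of 8 lipid genes in each library, H1 RNAi at left and control at right, with replicate letters and bars for the mean and SD (n = 3 per group, not drawn for Lip1 and Lip2, whose controls include 0). The H1 RNAi points of mag, Lip1, Lip2, Npc2f and GLaz lie above all controls, those of apolpp lie below, and those of Npc2d and NLaz overlap the controls.

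The sorted cells could hold some enterocytes, whose markers were followed as a list of 46 genes, 45 of them with a row. Of 35 tested, 1 rose (the maltase gene Mal-B2), 0 fell and 34 did not pass, where 2.83% of all tested genes passed, and 2 of the 45 were at 0 in all libraries. Before adjustment 7 of the 35 had a p under 0.05, all higher in H1 RNAi (23.8% of all tested genes), and the median log2 fold change of the 35 was 0.69, beside 0.14 for all tested genes. Their summed level was 1340, 2779 and 1808 TPM in H1 RNAi A, B and C, against 666, 2091 and 1256 TPM in control A, B and C, with overlapping groups. The Jonah and trypsin protease genes of that list, 23 genes, summed to 630, 1773 and 698 TPM in H1 RNAi and 148, 790 and 444 TPM in control. Within H1 RNAi, mag was lowest in library B, where both sums were highest. Some proteases of the list, named after their values were seen, were lowest in H1 RNAi B as mag was. Jon65Aii was at 48.2, 10.8 and 33.8 TPM in H1 RNAi A, B and C, against 2.62, 1.76 and 7.06 TPM in control. Jon99Fii was at 92.1, 29.8 and 82.0 TPM in H1 RNAi, against 4.39, 8.73 and 33.7 TPM in control. Jon25Biii (54.7 TPM) and Jon99Fi (12.4 TPM) were likewise lowest in library B within H1 RNAi. Other proteases of the list went the opposite way and were highest in H1 RNAi B. Among them, alphaTry was at 64.8, 416 and 140 TPM in H1 RNAi A, B and C, betaTry at 32.3, 369 and 71.1 TPM, and Jon65Aiv at 43.3, 339 and 66.7 TPM. The part of enterocyte content in the lipase values was not tested, and in bulk RNA more cells of a type and more RNA per cell cannot be told apart.

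The lipases of stored fat were abundant in both groups. The gene bmm (FBgn0036449) encodes brummer, the fly relative of adipose triglyceride lipase. It was at 118, 57.5 and 113 TPM in H1 RNAi A, B and C, against 126, 105 and 122 TPM in control (log2 fold change -0.36 ± 0.27, adjusted p = 0.470, limma). The lower mean in H1 RNAi came from library B, and without it the log2 fold change was -0.02. Hsl, the hormone-sensitive lipase, was at 25.8, 26.6 and 24.3 TPM in H1 RNAi, against 19.4, 23.1 and 18.4 TPM in control. Its groups did not overlap, but the difference of 0.32 ± 0.11 (log2, SE) missed the threshold (adjusted p = 0.148, limma).

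Sterol transport genes split into a pair of abundant members and a larger set that was low. Npc1a (FBgn0024320), which moves sterol out of late endosomes, was at 58.0 to 68.4 TPM in H1 RNAi and 59.9 to 64.9 TPM in control, the log2 fold change being -0.03 ± 0.11. Npc1b, the form needed for sterol uptake from food in the midgut, was at 0.81, 1.64 and 1.26 TPM in H1 RNAi, against 0.31, 1.57 and 0.45 TPM in control, where control B was as high as H1 RNAi. Npc1a exceeded Npc1b by 35.3 to 193 times within a library.

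Npc2a, the widely expressed sterol-binding partner, took 94.6% to 98.6% of the summed TPM of the 8 NPC2 genes in every library. It was at 325, 463 and 290 TPM in H1 RNAi A, B and C, against 358, 204 and 278 TPM in control, with overlapping groups (adjusted p = 0.419, limma). The only NPC2 gene whose groups did not overlap was Npc2f (FBgn0039154, 3R, 24137895 to 24140936), at 8.57, 7.88 and 6.32 TPM in H1 RNAi, against 3.13, 5.65 and 2.93 TPM in control. Its log2 fold change of 0.84 ± 0.24 missed the threshold (adjusted p = 0.104, limma) and passed only without control B (0.0270) and with array weights. Npc2d had the larger fold change, 1.13 ± 0.39 (adjusted p = 0.144, limma), but H1 RNAi C at 1.77 TPM lay below control C at 2.10 TPM.

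Npc2d, Npc2e and Npc2c lie side by side on 3R, with gaps of 1007 bp between Npc2e and Npc2d and 4168 bp between Npc2d and Npc2c. Their values did not move together. Npc2e was at 0.66, 5.38 and 2.79 TPM in H1 RNAi A, B and C, against 1.17, 3.62 and 1.68 TPM in control, where library B was the highest in each group. Npc2e also shares 967 bp with asRNA:CR44192 on the other strand, which had means of 2.29 TPM in H1 RNAi and 1.57 TPM in control. Npc2c was at 0.51 TPM or less and Npc2b at 0.20 TPM or less throughout. The neighbours Npc2g and Npc2h, 215 bp apart, were listed at 0 in every library, except for Npc2g at 1.40 TPM in control B.

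**Figure D3:**
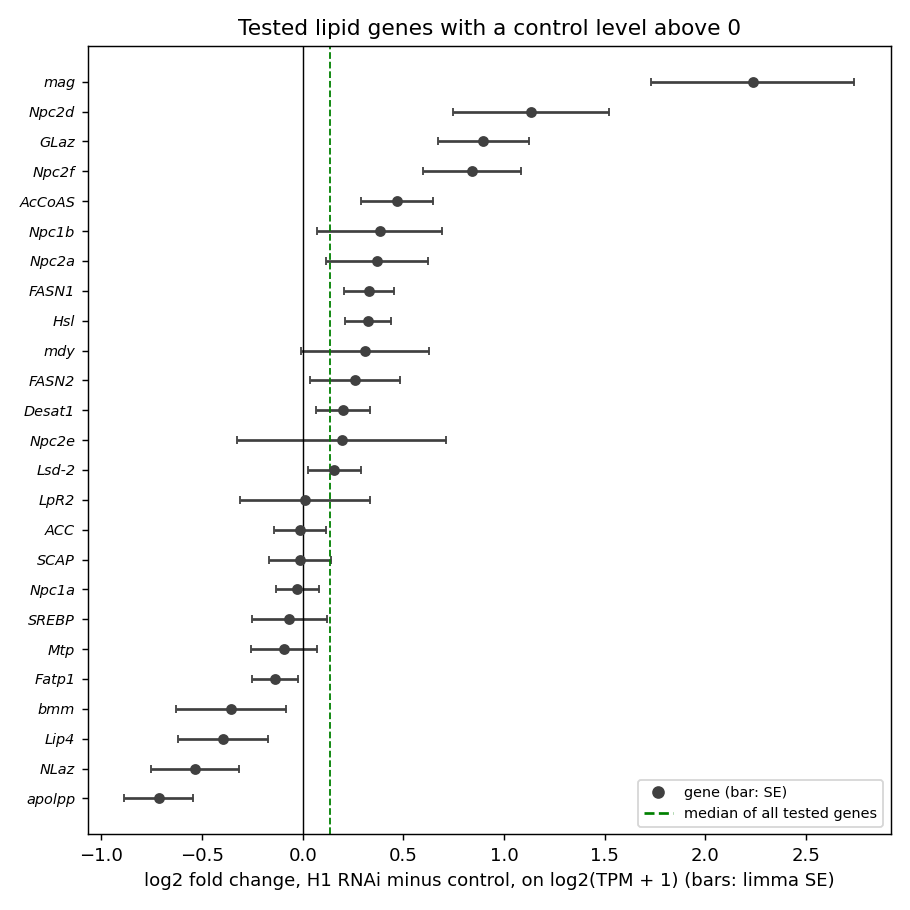
Log2 fold change (H1 RNAi minus control, on log2(TPM + 1)) with limma's SE for the 25 tested lipid genes that had a control level above 0, ordered by size. The values run from -0.71 for apolpp to 2.24 for mag, and the dashed line is the median of all tested genes, 0.14.

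Of 6 tested enzymes of fatty acid and triacylglycerol synthesis 0 passed (2 with p under 0.05 before adjustment, limma). Of all tested genes, 2.83% passed and 23.8% had p under 0.05 before adjustment. FASN1 (FBgn0283427, 2L, 3056598 to 3068177), the main fatty acid synthase, was at 104, 100.2 and 104 TPM in H1 RNAi, against 86.3, 69.8 and 90.3 TPM in control. The H1 RNAi values were nearly equal and above all controls, with a log2 fold change of 0.33 ± 0.13 (adjusted p = 0.175, limma). FASN2, whose gene ends 454 bp upstream of FASN1 on the same strand and whose product is known from oenocytes, was at 3.62 to 4.66 TPM in H1 RNAi and 2.28 to 4.34 TPM in control. FASN1 was 16.1 to 39.6 times above FASN2 in a library.

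AcCoAS, which makes acetyl-CoA from acetate, was at 16.9, 14.0 and 11.4 TPM in H1 RNAi, against 11.4, 10.1 and 8.14 TPM in control. H1 RNAi C at 11.43 TPM lay next to control A at 11.42 TPM, so the groups barely separated (log2 fold change 0.47 ± 0.18, adjusted p = 0.176, limma). ACC, the acetyl-CoA carboxylase that commits carbon to fatty acids, had the means 29.5 ± 2.94 TPM in H1 RNAi and 29.8 ± 3.72 TPM in control (SD, n = 3 each). The stearoyl-CoA desaturase gene Desat1 averaged 210 ± 8.10 TPM in H1 RNAi and 184 ± 27.9 TPM in control. The gene mdy, the diacylglycerol acyltransferase that completes triacylglycerol, averaged 23.3 ± 5.92 TPM in H1 RNAi and 19.4 ± 8.41 TPM in control, with log2 fold changes from -0.0065 without control A to 0.61 without control B.

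SREBP (FBgn0261283, 3L, 19793935 to 19798979) was abundant, ranking 296 of the 17807 genes by its mean over 6 libraries. It was at 355, 327 and 356 TPM in H1 RNAi, against 300.03, 479 and 330 TPM in control. Control B was the highest library, and the log2 fold change was -0.07 ± 0.18 over all libraries and 0.14 without control B. SCAP, its escort, was at 80.5 to 84.6 TPM in H1 RNAi and 67.6 to 100.8 TPM in control (log2 fold change -0.01 ± 0.15). SREBP exceeded SCAP by 3.56 to 4.88 times within a library. The microRNA gene mir-33 lies within SREBP on the same strand, and its row averaged 7.36 ± 2.85 TPM in H1 RNAi and 7.73 ± 1.91 TPM in control.

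The proteases that cut SREBP, S1P and S2P, rose past the threshold. S1P was at 23.2, 24.3 and 21.8 TPM in H1 RNAi, against 15.3, 16.5 and 16.7 TPM in control (log2 fold change 0.49 ± 0.09, adjusted p = 0.0476, limma). S2P was at 18.8, 19.6 and 16.6 TPM in H1 RNAi, against 12.0, 12.5 and 12.3 TPM in control (0.54 ± 0.10, adjusted p = 0.0468, limma). Both were tight within each group and did not overlap. Both calls lie close to the threshold: leaving out any library ended them (adjusted p from 0.0515 to 0.214 for S1P and from 0.05 to 0.213 for S2P), as did TMM scaling (0.103 and 0.0743) and quantile normalization (0.169 and 0.133). Whether S1P and S2P differed from SREBP and SCAP in their change was not tested.

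**Figure D4:**
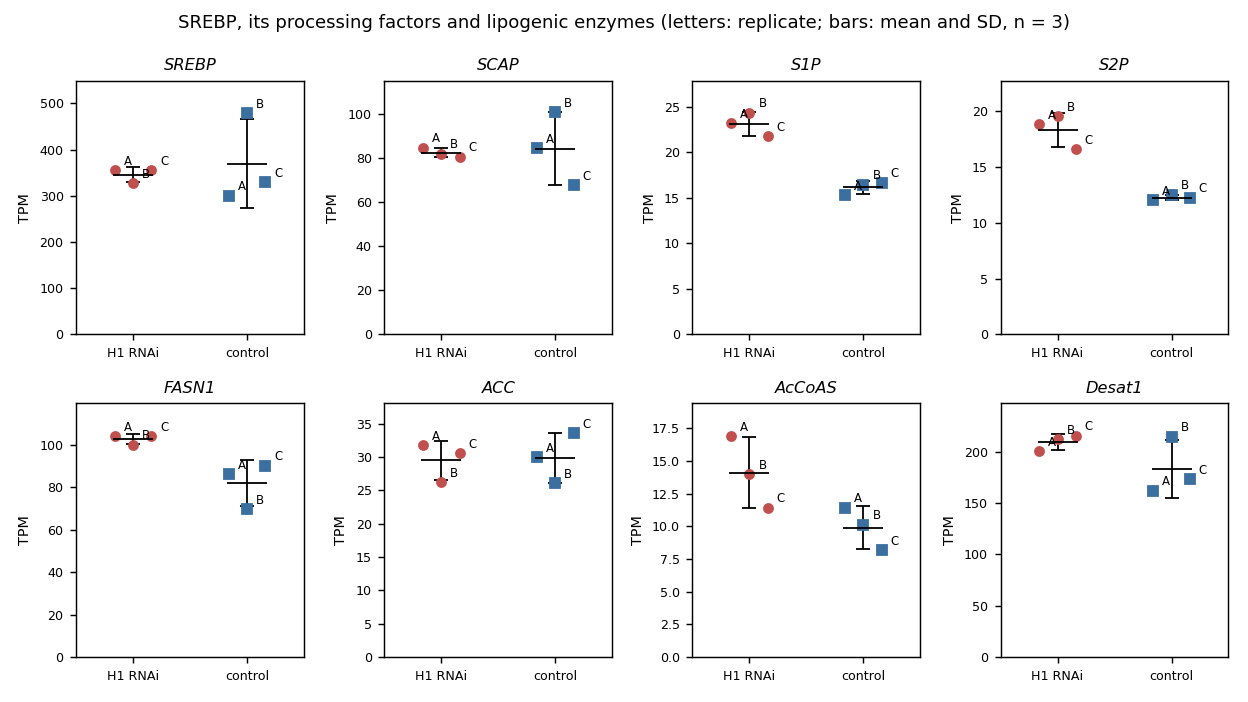
TPM by library of SREBP, SCAP, the SREBP proteases S1P and S2P and 4 lipogenic enzymes, H1 RNAi at left and control at right (letters, replicate; bars, mean and SD, n = 3 per group). S1P, S2P, FASN1 and, narrowly, AcCoAS separate the groups, while SREBP, SCAP, ACC and Desat1 overlap, with control B the highest library for SREBP and SCAP.

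The perilipins, which coat lipid droplets, differed from each other far more than between the groups. Lsd-2 (FBgn0030608, X, 15069127 to 15076220), which shields stored fat, was the highest lipid gene of the 35 and ranked 134 of all genes. It was at 913, 1191 and 1159 TPM in H1 RNAi, against 863, 999 and 1054 TPM in control (log2 fold change 0.16 ± 0.13, adjusted p = 0.510, limma). Lsd-1, the perilipin known for controlling access of the hormone-sensitive lipase, was at 0.18, 0.86 and 2.41 TPM in H1 RNAi, against 0.16, 0.34 and 0.12 TPM in control. The H1 RNAi libraries scattered over the whole range of Lsd-1, and H1 RNAi A lay within the controls. Lsd-2 exceeded Lsd-1 by 481 times or more in each library.

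Lipoprotein genes were low, apart from a receptor. The gene apolpp (FBgn0087002, chromosome 4, 1060969 to 1077273), which encodes the lipophorin core protein made mainly in fat body, was at 0.87, 0.70 and 0.94 TPM in H1 RNAi, against 1.92, 2.11 and 2.0 TPM in control. Of the 26 tested genes it was the 1 that was lower in H1 RNAi with no overlap. As apolpp passed the filter only through control, that separation was fixed by the filter and is no result. The log2 fold change of apolpp, -0.71 ± 0.17, missed the threshold (adjusted p = 0.0779, limma). It passed only with moderation that had neither the mean trend nor the robust step (0.0250).

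Apoltp, the lipid transfer particle gene, was at 0.92 TPM in control B and at 0.09 to 0.11 TPM in the other 5 libraries. LpR1, a lipophorin receptor, was also highest in control B, at 0.94 TPM, and at 0.51 TPM or less elsewhere. Control B was also the library with the high yolk protein values, and a link of those with the Apoltp and LpR1 values was not tested. LpR2, the neighbouring receptor gene 882 bp away, was at 30.9, 43.3 and 42.8 TPM in H1 RNAi, against 24.7, 62.4 and 36.1 TPM in control, so again control B was the highest (log2 fold change 0.01 ± 0.32, and -0.11 with TMM scaling). Mtp, which loads lipid onto the particles, was at 3.87 to 4.59 TPM in H1 RNAi and 4.05 to 5.25 TPM in control.

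The lipocalins GLaz and NLaz, small secreted carriers related to apolipoprotein D, had opposite signs. GLaz (FBgn0033799) was at 2.64, 3.87 and 4.19 TPM in H1 RNAi, against 1.42, 1.90 and 1.03 TPM in control. Every H1 RNAi library was higher than every control (log2 fold change 0.90 ± 0.23, adjusted p = 0.0824, limma), and GLaz passed only with array weights (0.0384). NLaz was at 11.0, 16.2 and 13.5 TPM in H1 RNAi, against 14.5, 24.1 and 22.5 TPM in control, where control A lay among the H1 RNAi values (log2 fold change -0.54 ± 0.22, adjusted p = 0.194, limma). Fatp1, a fatty acid transporter, averaged 16.4 ± 1.30 TPM in H1 RNAi and 18.2 ± 1.81 TPM in control.

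Beyond the 36 genes, 151 further lipid genes had a row, in 7 lists, and 89 of them were tested. Of these 89, 3 rose, 0 fell and 86 did not pass, where 2.28% of all tested genes passed as higher and 0.554% as lower. Over all tested genes that split was 185 higher and 45 lower, against 88 and 48 with TMM scaling and 83 and 63 with quantile normalization. Their median log2 fold change was 0.07, beside 0.14 for all tested genes. The third call, beside S1P and S2P, was Mfe2, a multifunctional enzyme of peroxisomal beta-oxidation. It was at 82.9, 90.8 and 84.4 TPM in H1 RNAi, against 59.0, 58.9 and 56.7 TPM in control (log2 fold change 0.56 ± 0.10, adjusted p = 0.0361, limma). The libraries of each group were close together and far from the other group, yet the call was kept only without control B (0.0371) among the single libraries left out, and was lost with TMM scaling (0.0726) and quantile normalization (0.0687).

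**Figure D5:**
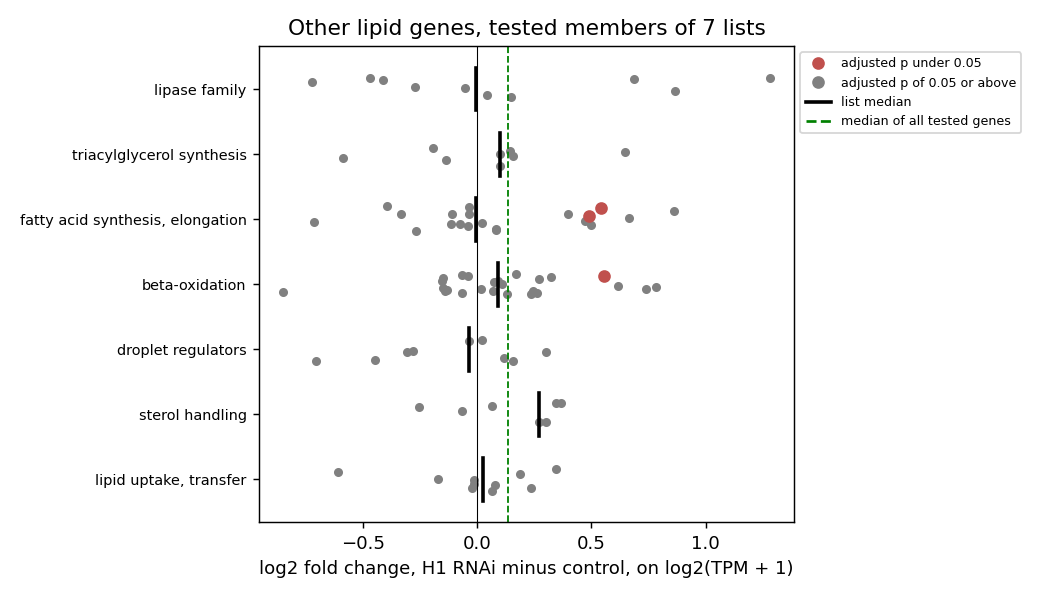
Log2 fold change (H1 RNAi minus control, on log2(TPM + 1)) of 89 other tested lipid genes in 7 lists, with the median of each list as a black bar. The 3 genes past the threshold are the SREBP proteases S1P and S2P, in the fatty acid synthesis list, and Mfe2, in the beta-oxidation list. The list medians run from -0.04 to 0.27 around the median of all tested genes, 0.14.

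Of 25 beta-oxidation genes tested, 1 rose, 0 fell and 24 did not pass, where 2.83% of all tested genes passed. Groups did not overlap for 8 that were higher and 2 that were lower (24.3% and 6.45% of all tested genes). Next to Mfe2 came CG4860, an acyl-CoA dehydrogenase relative, at 31.9, 25.6 and 21.4 TPM in H1 RNAi, against 54.4, 46.8 and 42.1 TPM in control. Its log2 fold change of -0.85 ± 0.17 lay just outside the threshold (adjusted p = 0.0502, limma) and passed with TMM scaling (0.0235) and quantile normalization (0.0240). The acyl-CoA oxidase genes Acox3 (log2 fold change 0.62, adjusted p = 0.0674) and CG4586 (0.78, adjusted p = 0.0824) did not pass (limma). CG4586, which is among the 8 higher genes without overlap, was tested only because the H1 RNAi libraries passed the filter.

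Of 20 tested genes in the list of fatty acid synthesis and elongation, 2 rose, 0 fell and 18 did not pass. Of all tested genes, 2.83% passed. The 2 that rose were the SREBP proteases S1P and S2P, and no enzyme of synthesis or elongation in the list passed. The median log2 fold change of the list was -0.0065, beside 0.14 for all tested genes. After S1P and S2P the smallest adjusted p were those of Hacd1, a dehydratase of the elongation cycle (log2 fold change 0.47, adjusted p = 0.0581, limma), and of the acyl-CoA binding protein gene Acbp2 (0.86, adjusted p = 0.0903, limma). The counts that follow stand beside 2.83% of all tested genes past the threshold and 23.8% with p under 0.05 before adjustment. The wider lipase family was mostly low, with 30 of 40 genes under the filter, and 0 of 10 tested genes passed (3 with p under 0.05 before adjustment, limma). CG10116, CG6277, inaE and CG3635 had log2 fold changes of 0.86, -0.72, 0.68 and -0.41. Of 8 triacylglycerol synthesis genes 0 passed (1 with p under 0.05 before adjustment, limma). Gpo1, the mitochondrial glycerophosphate oxidase, was at 32.7, 31.7 and 31.6 TPM in H1 RNAi, against 16.3, 30.3 and 16.3 TPM in control, so that control B was close to H1 RNAi. It passed without control B (adjusted p = 0.00644, limma) and not over all libraries (0.155). CG1941, Lpin and Gpat4 had log2 fold changes of -0.59, -0.19 and 0.14.

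Of 7 sterol handling genes, 0 passed (3 with p under 0.05 before adjustment, limma), the log2 fold changes being 0.37 for CG1513, 0.30 for Start1, 0.27 for Osbp and -0.26 for the nuclear receptor gene Hnf4. Of 9 droplet and fat breakdown regulators 0 passed (1 with p under 0.05 before adjustment, limma). Jabba, a droplet protein known for anchoring histones, was at 30.1, 26.6 and 31.8 TPM in H1 RNAi, against 45.5, 43.1 and 34.0 TPM in control, with no overlap (log2 fold change -0.45 ± 0.14, adjusted p = 0.118, limma). The log2 fold changes of foxo, Sik3 and Pcyt2 were -0.31, 0.30 and -0.71. Of 10 uptake and transfer genes 0 passed (1 with p under 0.05 before adjustment, limma), the nearest being the megalin gene mgl (-0.61 ± 0.16, adjusted p = 0.0908), while emp, crq and ninaD were at 0.24, -0.17 and 0.34.

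The receptor gene AkhR, through which adipokinetic hormone releases stored fat, was named after its values were seen. It was at 0.83, 1.06 and 0.92 TPM in H1 RNAi, against 0.01, 0.12 and 0 TPM in control. All 3 H1 RNAi libraries were above all controls, but only 1 reached 1 TPM, so AkhR was tested only in the fit without a filter (adjusted p = 0.0354, limma).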

How the data were processed

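Gene expression was taken from 1 table of TPM values per gene and library, computed and deposited by the authors and rounded to 2 decimals. Per the submitters' processing notes, bcl2fastq was run and the build was dm6. No aligner, counter, annotation or use of strand is stated in the sources used here. Symbols came from a name table that paired 17710 of 17807 identifiers, and coordinates (1-based) from Ensembl release BDGP6.54. Promoter and protein sequences were not analysed here.

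H1 RNAi was compared with control by limma 3.58.1 in R 4.3.3 on log2(TPM + 1), for genes that reached 1 TPM in 3 or more of the 6 libraries, with a mean trend, robust moderation and Benjamini-Hochberg adjustment at 0.05 over all 8124 tested genes. The pseudocount understates fold changes of genes near or below 1 TPM. An exact permutation test of 3 against 3 libraries was not used. The procedure was run on simulated data with independent noise per library, in which changes were added only to genes well above 1 TPM in control. That run therefore does not cover genes near 0 such as Lip2. All 36 genes are named, of each wider list the 4 smallest adjusted p and every call; the members and lists were chosen with earlier results of these data known. Wider lists were matched by symbol or a unique synonym. Alternatives were a block for the replicate letter, other pseudocounts (0.1, 5), filters (none, 5 TPM), scalings (TMM with trims of 0.3 and 0.05, quantile) and moderation, array weights, and each library left out in turn. Summaries and plots were made in Python 3.11.15 (pandas 2.3.3, matplotlib 3.10.9).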

Additional observations from a re-analysis of the deposited data

How the results depend on the processing

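Depth is unknown from TPM, which limits what can be said of genes below 1 TPM such as Lip1, Lsd-1 and AkhR. Of 8124 genes tested 230 passed, and the number was 90 with no filter, 136 with TMM scaling, 146 with quantile normalization, 547 with array weights, and 29 to 450 on leaving out 1 library (29 without H1 RNAi B, 450 without control B). Of the lipid genes, 1 passed (Lip2), and the number was 0 with a pseudocount of 5, a filter at 5 TPM, TMM scaling or quantile normalization. It was 2 with moderation neither trended nor robust (Lip2 and apolpp), 3 with array weights (Lip2, Npc2f and GLaz) and 0 to 2 on leaving out 1 library. With no filter it was 1, Lip1 in place of Lip2. Of the other lipid genes 3 passed, and the number was 1 with no filter (AkhR), TMM scaling or quantile normalization (CG4860 in both), 9 with array weights, and 0 to 2 on leaving out 1 library. The median log2 fold change of the tested lipid genes, 0.20, was 0.13 with a pseudocount of 5, 0.084 with a filter at 5 TPM, 0.10 with TMM scaling, 0.11 with quantile normalization, 0.27 with array weights, and 0.035 to 0.27 on leaving out 1 library. Except for the filters, which change the genes tested, the cause was not tested.

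The replicate letter as a block gave 142 calls over all genes, 0 among the lipid genes (Lip2 at 0.0674) and 1 among the other lipid genes (CG4860). The letters are not shown to pair the libraries. Same-letter deviations from the group means had correlations across genes of 0.40 for A, 0.14 for B and 0.09 for C, and not every library correlated best with its own letter.

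Of 798 recomputed fold changes of 54 named genes, 18 changed sign, in 7 genes that had no call. On leaving out 1 library the log2 fold change spanned -0.10 to 0.015 for Npc1a, -0.26 to 0.72 for Npc2e, -0.10 to 0.071 for ACC, -0.0065 to 0.61 for mdy, -0.20 to 0.14 for SREBP, -0.16 to 0.12 for SCAP and -0.29 to 0.36 for LpR2. With array weights SREBP was at 0.0062 and SCAP at 0.048, and LpR2 was at -0.11 with TMM scaling and -0.11 with quantile normalization.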
